A study of Mus musculus with 4 samples.

Results

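C1q-high macrophages of the mouse kidney were followed over 7 days of glyoxylate, an oxalate precursor whose injection leads to calcium oxalate crystals in the kidney. They were chosen by their counts of unique molecular identifiers (UMIs, each standing for 1 captured RNA molecule). A barcode, the tag of 1 droplet, entered when it held at least 5 UMIs over the complement genes C1qa, C1qb and C1qc, none of Cd3d, Cd3e, Cd3g (T cell receptor complex) and none of Cd79a (B cell receptor complex), with at least 500 UMIs in all and at most 50% of them from mitochondrial genes. This left 632 of 60670 barcodes, called the C1q gate here, with 154 barcodes at D0, 172 at D1, 123 at D4 and 183 at D7. Male C57BL/6 mice aged 6 to 8 weeks received intraperitoneal glyoxylate for 0 (D0), 1 (D1), 4 (D4) or 7 (D7) successive days, and whole-kidney cells freed with trypsin and DNase were sequenced with a droplet method that reads the 3′ end of each RNA. D0 stands for no day of injection, and no group with a vehicle is described. Each day was 1 library, and how many mice it holds is not stated, so there is no replicate error: all intervals below are 95% intervals that cover counting error only, and no difference between days was tested across animals. All 3 later days were set against the same D0 library, so their differences share its errors.

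C1q is the recognition part of the classical complement pathway, built from the A, B and C chains that these genes encode, and in most tissues macrophages are its main source. Kidney macrophages that settle before or soon after birth express C1q, the growth factor receptor gene Csf1r and the chemokine receptor gene Cx3cr1, and they present antigen on major histocompatibility complex (MHC) class II molecules. After injury, blood monocytes that carry Ccr2 and Ly6c2 enter the kidney and can turn into macrophages that also express C1q, so C1q alone does not separate the origins. Macrophages that take up dying cells, lipid or crystals are known to raise lysosomal enzymes and a lipid-handling set led by Trem2, Spp1, Fabp5 and Apoe.

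Levels are given as CPM, the UMIs of a gene per 1000000 UMIs of all gated barcodes of a library summed. The label was checked against macrophage markers. Csf1r stood at 351 CPM at D0, 374 at D1, 300.1 at D4 and 339.6 at D7. Adgre1, the surface antigen F4/80, was at 248, 199, 139.8 and 161 CPM in the same order. Cd68, a lysosomal membrane protein, was at 318, 315, 227 and 413 CPM. All 3 were thus present on every day. Proximal tubule barcodes of the same libraries held at most 3.97 CPM of Csf1r, 0.279 of Adgre1 and 1.48 of Cd68. Markers of resident macrophages were present in part. Cx3cr1 was at 337, 253, 194 and 171 CPM, whereas Folr2, Lyve1 and Cd163, which mark other resident macrophages, had no UMI at D0. Since the data bear the name resident only in part and recruited-type genes were higher on later days, the cells are called C1q-high macrophages.

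Depth and RNA of other cells differed between the libraries. The gate's median depth was 2295 UMIs at D0, 3097 at D1, 5269 at D4 and 5880 at D7, the 4 libraries held 516130, 833939, 679663 and 1201581 gated UMIs in day order, and no barcode at D4 or D7 lay below 2919 or 2773 UMIs although D0 and D1 reached down to 500. RNA of the proximal tubule, the main cell type of the kidney, was plentiful in the gate: over 15 tubule markers the median level in the gate was 50.6, 40, 65 and 36.1% of that in proximal tubule barcodes in day order. Gated barcodes with under 1% of their UMIs in those markers, called tubule-poor here, numbered 111, 122, 29 and 104 and held 5.92, 5.19, 8.12 and 5.49% of the tubule level. Values are therefore given for the whole gate and for tubule-poor barcodes, and where they part also at 3000 or more UMIs. Summed endothelial, mesenchymal and red-cell markers stayed at or below 9.59 CPM in every library; the T and NK list (Nkg7, Gzma, Lck) lay at 15.5, 10.8, 4.41 and 28.3 CPM and the B cell list at 44.6, 30, 11.8 and 14.2 CPM. No gated barcode was shared by 2 libraries.

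The gate held 1.06% of barcodes within the quality limits at D0 (exact binomial interval 0.903 to 1.24%), 1.5% (1.29 to 1.75%) at D1, 0.764% (0.635 to 0.911%) at D4 and 1.27% (1.09 to 1.46%) at D7. Against D0 the share was 1.42 (95% interval 1.13 to 1.77) times as large at D1, 0.718 (95% interval 0.562 to 0.917) times at D4 and 1.19 (95% interval 0.956 to 1.49) times at D7. These ratios depended on depth. Among barcodes with 3000 or more UMIs the shares were 0.517, 1.22, 0.77 and 1.25%, and the ratios became 2.36 (95% interval 1.66 to 3.39) at D1, 1.49 (95% interval 1.06 to 2.11) at D4 and 2.42 (95% interval 1.76 to 3.37) at D7, which turns D4 from below to above D0. Counting only tubule-poor barcodes at that depth gave 0.223, 0.872, 0.184 and 0.694% and ratios of 3.91 (95% interval 2.38 to 6.65), 0.826 (95% interval 0.459 to 1.51) and 3.11 (95% interval 1.94 to 5.2). The order D1 and D7 above D0 held in the 3 ways of counting, with an interval at D7 that reaches below 1 when all barcodes are counted, and the direction at D4 did not. Fewer macrophages in the kidney and fewer freed by the digestion cannot be told apart.

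**Figure D1:**
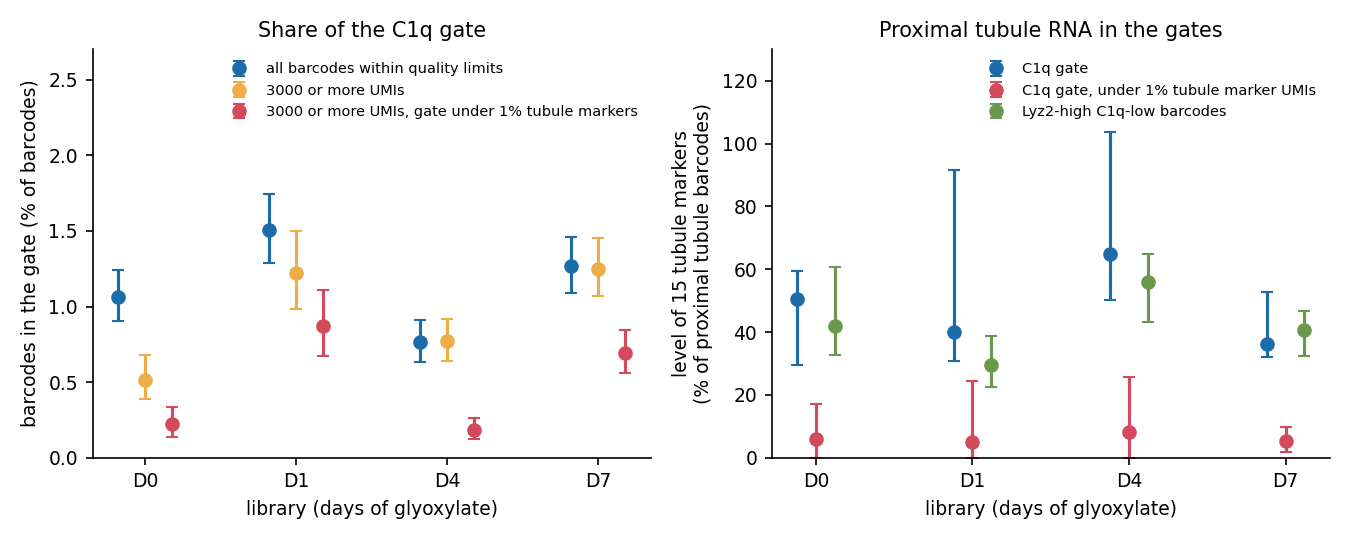
Left, barcodes of the C1q gate as a percentage of the barcodes of each library within the same depth and quality limits, counted in 3 ways, with exact 95% binomial intervals. Right, the level of 15 proximal tubule markers in 3 sets of barcodes as a percentage of the level in proximal tubule barcodes, with the median as the point and the lowest and highest marker as bars. D4 lies below D0 for all barcodes and above it at 3000 or more UMIs, and tubule RNA is high in the gate at D4 and low in tubule-poor barcodes of every day.

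The 3 C1q genes chose the cells, so their levels are a description. They lie side by side on chromosome 4 (GRCm38, minus strand): C1qb at chr4:136880129-136886187, C1qc at chr4:136889804-136893065 and C1qa at chr4:136895917-136898803. The median gated barcode held 30 C1q UMIs at D0, 30 at D1, 22 at D4 and 43 at D7, and C1q made up 0.967, 1.01, 0.609 and 0.93% of all gated UMIs. In tubule-poor barcodes that share was 1.51, 1.47, 1.37 and 1.33%. C1qa gave 39.3, 39.5, 41.2 and 35.8% of the C1q UMIs, C1qb 38.1, 38.1, 36.4 and 40.3% and C1qc 22.6, 22.4, 22.4 and 23.9%, so the 3 chains kept nearly the same proportion through the 7 days. Barcodes just inside the limit, with 5 C1q UMIs, numbered 4, 5, 6 and 5 and had a median tubule share of 0.932, 1.1, 5.39 and 9.2% of UMIs. Those just outside, with 4, numbered 2, 11, 4 and 17 with 4.63, 1.41, 3.43 and 5.73%.

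MHC class II genes were lower at D4 and D7 in C1q-high macrophages. Their promoters carry a shared set of boxes (W, X and Y) through which the coactivator encoded by Ciita acts, and the Y box holds an inverted CCAAT. The 250 bases before the start of H2-Aa, which encodes the alpha chain of the I-A molecule, are shown first because this gene stands for the group in the values below, with the Y box letters CTGATTGG in capitals. They come from RefSeq on GRCm38.p6 and are written 5′ to 3′ on the gene's strand.
H2-Aa, chr17:34287824-34288073, minus strand: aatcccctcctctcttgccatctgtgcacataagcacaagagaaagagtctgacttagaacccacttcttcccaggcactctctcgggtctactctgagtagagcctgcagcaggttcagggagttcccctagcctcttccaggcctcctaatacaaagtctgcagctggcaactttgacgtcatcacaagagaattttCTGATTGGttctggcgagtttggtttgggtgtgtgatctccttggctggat
The same 8 letters, with 10 bases on either side, occurred before 4 of the 7 listed MHC class II genes with a RefSeq promoter entry.
H2-Aa, chr17:34287857-34287884, minus strand: agagaattttCTGATTGGttctggcgag
H2-Eb1, chr17:34305795-34305822, plus strand: tcctttgatgCTGATTGGctcccagcac
H2-Eb2, chr17:34325562-34325589, plus strand: ctcttggctgCTGATTGGttcttcagca
H2-Oa, chr17:34092323-34092350, plus strand: gagaactgctCTGATTGGctgcttaccg
They began 51, 62, 103 and 46 bases before the start in that order, and the H2-Oa stretch overlaps an annotated exon of GENCODE M21 by 11 bases. Searched on both strands, CTGATTGG was found in the same window of 3.83% of all 32851 promoters, and the shorter CCAAT, which it contains on the opposite strand, in 7 of these 7 genes and in 33.9% of all promoters. These matches describe letters and not binding.

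Cd74, which encodes the invariant chain that escorts class II molecules, stood at 24511 CPM at D0, 19000.2 at D1, 8969 at D4 and 9550 at D7. H2-Aa followed with 8783, 6277, 3169 and 3321 CPM in the same order. H2-Ab1, the beta chain of I-A, was at 9934, 6553, 3219 and 3344 CPM. In all 3 genes D0 was highest, D1 lay between, and D4 and D7 were the lowest pair. The D7 level of Cd74 was 0.39 (95% interval 0.38 to 0.4) times that of D0, and that of H2-Aa 0.378 (95% interval 0.362 to 0.395) times. H2-Eb1, a chain of I-E, was at 0.362 (95% interval 0.347 to 0.379) times its D0 level. H2-DMa, a chain of the peptide-loading molecule H2-M, was at 541, 444, 269 and 389 CPM. Its partner H2-DMb1 was at 670.4, 532, 275 and 368 CPM. Ciita itself was low throughout, at 42.6, 36, 20.6 and 25 CPM, and these 3 genes were lower at D7 by less than the chains. A gene counts as measured in a comparison when its libraries together hold 20 UMIs or more, and it is called when the ratio of CPM + 10 between a day and D0 is 2-fold or more. By this rule 4 of 7 measured class II genes were lower at D7 and 0 higher, where 2.03% of the 7031 genes measured were lower, and their median log2 ratio was -1.36 against 0.00 over all genes. At D4 5 of 7 were lower (median -1.45), where 2.40% of genes were, and at D1 0 of 7 (median -0.37), where 1.07% were. The other 3 listed members, H2-Eb2, H2-DMb2 and H2-Oa, had fewer than 20 UMIs in each pair and were not measured.

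The lower class II levels were present in tubule-poor barcodes, where Cd74 was at 38354, 26479, 14265 and 11610.2 CPM and H2-Aa at 13660.2, 8939, 5219 and 4101 CPM. There 6 of 7 class II genes were lower at D7, where 5.37% of genes were. With 3000 or more UMIs and little tubule RNA together, Cd74 was at 29553, 24021, 14265 and 10549 CPM and 6 of 7 genes were lower (median -1.49), where 6.17% of genes were. In the whole gate at 3000 or more UMIs, however, no class II gene reached 2-fold at D7 (median -0.72), where 3.25% of genes did, and H2-Aa was at 5294, 5534, 3148 and 3133 CPM. The 51 D0 barcodes of that depth held 72.6% of the tubule level against 36.2% at D7, and the part of that RNA in the result was not tested beyond the tubule-poor values.

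The difference was seen cell by cell. Each tubule-poor barcode with at least 1000 UMIs was thinned to 1000 UMIs at random, which left 104, 104, 29 and 104 cells. The UMIs of H2-Aa, H2-Ab1, H2-Eb1 and Cd74 together had a median of 90 per 1000 at D0, 66 at D1, 28 at D4 and 21 at D7, with a lower quartile of 70.5, 41, 12 and 4 and an upper quartile of 104, 89, 51 and 50.2. The quartile ranges of D0 and D7 did not overlap, and that of D1 overlapped D0. Single cells ranged widely on every day, from 0 to 98 per 1000 at D7 and from 9 to 160 at D0. Of the cells, 25, 55.8, 82.8 and 90.4% lay below the lower quartile of D0. Of the cells below that quartile, 0, 13.8, 41.7 and 3.19% held a UMI of Retnla, a gene described below. At D4 these percentages rest on 24 cells. Thinned to 3000 UMIs instead, the medians were 192, 186, 94 and 66 over 22, 65, 29 and 95 cells, so at that depth D1 was close to D0 while D4 and D7 remained low. A loss of class II within cells and an exchange of cells with high for cells with low class II cannot be told apart.

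**Figure D2:**
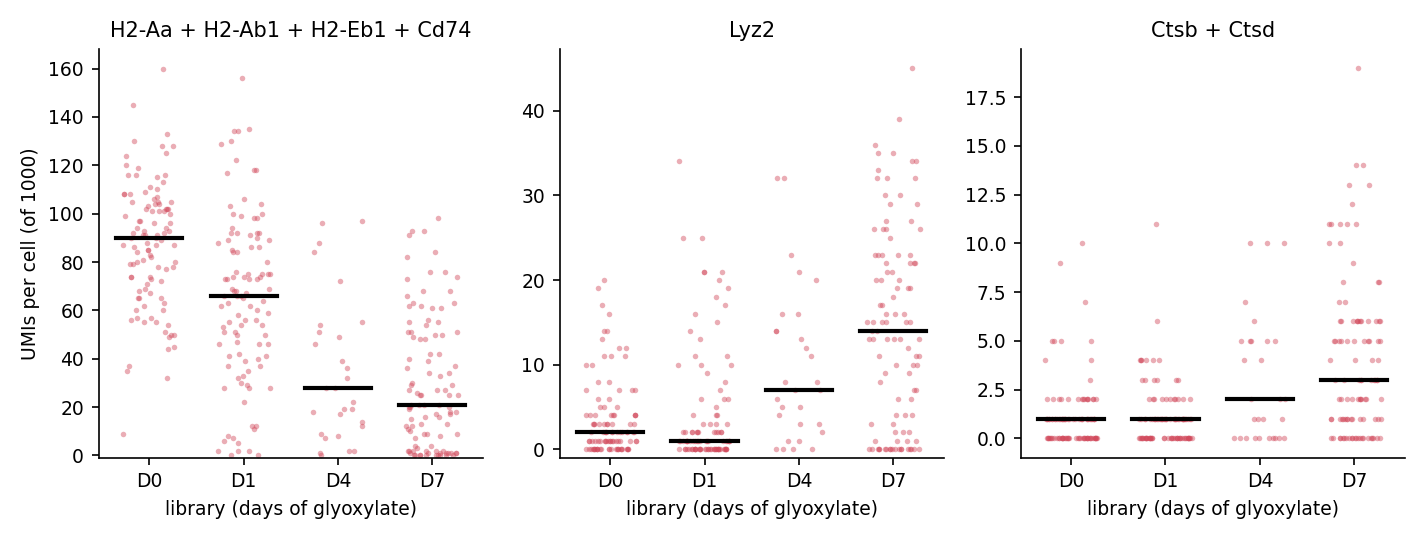
UMIs per tubule-poor C1q-high cell after thinning to 1000 UMIs, for the summed class II genes, for Lyz2 and for Ctsb with Ctsd; each point is 1 cell, bars are medians, and the x axis gives the library. The class II median moves from 90 at D0 to 21 at D7, and the Lyz2 median from 2 to 14.

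Some class I genes were lower at D4 and D7. H2-K1, a classical class I heavy chain, stood at 1273 CPM at D0, 1149 at D1, 662 at D4 and 606 at D7. Of the class I and peptide-loading genes 0 of 11 measured were 2-fold lower at D1, 3 at D4 and 3 at D7, where 1.07%, 2.40% and 2.03% of all genes were lower, with medians of -0.01, -0.74 and -0.81. In tubule-poor barcodes 5 of 11 were lower at D7, where 5.37% of genes were. In the whole gate at 3000 or more UMIs it was 0 of 11 (median -0.31), where 3.25% were. With 3000 or more UMIs and little tubule RNA together it was 6 of 11 (median -1.10), where 6.17% were. The class I result thus depended on which barcodes were kept. The interferon-stimulated list did so too. In the gate 3 of 17 measured genes, Ifit2, Ifit3 and Rsad2, were lower and 0 higher at D7, where 2.03% of genes were lower. In tubule-poor barcodes 0 of 13 were lower, where 5.37% were, and these 3 genes had too few UMIs to be measured. With 3000 or more UMIs as well it was 4 of 10, where 6.17% were. In Lyz2-high C1q-low barcodes, other phagocytes described at the end, 7 of 20 were lower, where 0.657% were. Rsad2, an antiviral effector, was at 31, 22.8, 8.83 and 5.83 CPM in the gate, a low count on every day. Ptprc, the pan-leukocyte phosphatase CD45, was at 374, 357, 185 and 188 CPM. No proximal tubule barcode held Ptprc, as the definition of that set requires. Cx3cr1 did not reach the 2-fold rule at D7 in the gate, with a log2 ratio of -0.94. It reached the rule in tubule-poor barcodes, at 565, 375, 256 and 212 CPM with a log2 ratio of -1.37. With 3000 or more UMIs as well it did not, since the lowest ratio of the resident-type list there was -0.62.

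Other genes with the lowest ratios to D0 included receptors and regulators. Many lower calls depended on which barcodes were kept. The gate had 67, 144 and 143 genes lower at D1, D4 and D7. At 3000 or more UMIs 46, 40 and 57 of them were also called lower, and in tubule-poor barcodes of that depth 9, 45 and 59. Levels at that depth are not given for most genes named in this and the next paragraph. Tmcc3, a membrane protein of the endoplasmic reticulum, was at 180.2 CPM at D0, 95.9 at D1, 54.4 at D4 and 48.3 at D7, so all 3 later days lay below D0. In tubule-poor barcodes it was at 281, 127, 97 and 44.6 CPM. It was among the 10 lowest genes on every later day. Creb5, a transcription factor of the CREB family, was at 118, 48, 32.4 and 35.8 CPM and already low at D1. Clec4b1, a C-type lectin receptor, was at 170.5, 80.3, 70.6 and 56.6 CPM, also low from D1 on. Cd83, an activation marker of antigen-presenting cells, was at 178, 63.5, 85.3 and 156 CPM. Unlike the genes before it, Cd83 was lowest at D1 and within 2-fold of its D0 level at D7. Bcl2a1d, a survival gene with near copies among which reads may be shared, was at 129.8, 77.9, 25 and 119.8 CPM and lowest at D4. Fosb, an immediate-early factor, was at 256, 127, 266 and 166 CPM in the gate and 240.5, 217, 249.5 and 174 CPM in tubule-poor barcodes of 3000 or more UMIs, so its D1 difference was smaller in those.

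Several more genes were lower on the later days. Fcgr4, an activating receptor for IgG, was at 254 CPM at D0, 140.3 at D1, 91.2 at D4 and 80.7 at D7. Lilra5, a leukocyte immunoglobulin-like receptor, was at 254, 216, 80.9 and 65.8 CPM. Slamf7, a receptor of the SLAM family, was at 108, 58.8, 35.3 and 19.1 CPM. In each of these 3 the D0 level was highest and the D7 level lowest, and the same held in tubule-poor barcodes, where Fcgr4 had 382 CPM at D0 and 100.4 at D7. Fam46a was at 209, 152, 97.1 and 62.4 CPM. Fam129a was at 124, 82.7, 38.2 and 31.6 CPM. Both had the same order of days. Runx1, a transcription factor of blood cells, was at 259.6, 164, 112 and 99 CPM. Tgfbr1, a receptor for transforming growth factor beta, was at 231, 164, 91.2 and 81.6 CPM. Runx1 and Tgfbr1 again lay lowest at D7. Cited2, a transcriptional coregulator, was at 717, 486, 497 and 239.7 CPM in the gate, but in tubule-poor barcodes of 3000 or more UMIs D1 and D4 were above D0 (394, 647, 561 and 189.5 CPM). H2-Q7, a class I gene with near copies among which reads may be shared, was at 101, 77.9, 23.5 and 26.6 CPM. Myadm was at 114, 82.7, 28 and 45.8 CPM, lowest at D4 like H2-Q7.

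Lipid-associated genes and a few lysosomal genes were higher at D7. Of the lipid-associated macrophage list 13 of 23 measured genes were higher and 0 lower (median log2 ratio 1.41), where 3.67% of all genes were higher. In tubule-poor barcodes it was 14 of 23 (median 1.45), where 8.09% were. Gpnmb and Syngr1 were measured in the gate at D7 but not at D1 or D4, so they entered the list through D7. Fabp5 was so low at D0 that it could not be called lower. Members of this kind were not counted. Trem2, a receptor for lipids and cell debris, was at 46.5 CPM at D0, 40.8 at D1, 53 at D4 and 251 at D7, so D7 stood above 3 similar libraries, and its D7 level was 5.41 (95% interval 3.56 to 8.57) times that of D0. Fabp5, a fatty acid carrier, was at 11.6, 21.6, 7.36 and 321 CPM and again high at D7 alone among the 4. Capg, an actin-capping protein, was at 11.6, 119, 61.8 and 256 CPM, above D0 on each later day. Ctsd, the lysosomal protease cathepsin D, was at 136, 242, 456 and 1231 CPM (159.8, 331, 1442 and 1957 in tubule-poor barcodes). Lysosomal genes often hold the E box CACGTG, which factors of the TFEB family recognise, and the pair found in the 250 bases before Ctsd (RefSeq, GRCm38.p6) is shown with its flanks and the E box in capitals.
Ctsd first site, chr7:142388057-142388077, minus strand: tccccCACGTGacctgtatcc
Ctsd second site, chr7:142387910-142387935, minus strand: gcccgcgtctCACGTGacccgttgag
They began 245 and 98 bases before the RefSeq start, and the second lies within an exon of a longer transcript in GENCODE M21. Searched on both strands, CACGTG occurred before 7 of 21 lysosomal genes with an entry and before 6.02% of all promoters, and the longer TCACGTGA, which contains it, before 2 of 21 and 0.785%.

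Other members of these lists moved less evenly. Of the lysosome list 3 of 26 measured genes were higher at D7 (median 0.41), where 3.67% of all genes were. It was 7 of 26 in tubule-poor barcodes, where 8.09% were, and 11 of 25 in those with 3000 or more UMIs (median 0.81), where 14.4% of genes were, so the count depended on which barcodes were kept. Ctsb, cathepsin B, was at 641, 664, 950.5 and 1675 CPM in the gate. Grn, a growth factor precursor sorted to lysosomes, was at 180.2, 234, 374 and 609 CPM. Both increased from library to library in day order. Apoe, the lipid carrier apolipoprotein E, was at 9472, 5954, 6069 and 14967 CPM in the gate and 7227, 8981, 15374 and 23739 CPM in tubule-poor barcodes of 3000 or more UMIs: D7 was highest in both, D1 was below D0 in the first and above it in the second. Spp1, osteopontin, was at 145, 410.1, 590 and 2118 CPM, but tubule cells also carry it, with 278, 633, 1103 and 2068 CPM in proximal tubule barcodes. Tubule-poor barcodes had 81.8, 421, 201 and 2636 CPM, where D7 was again far above the other days. Lyz2, the macrophage lysozyme, was at 2079, 4400, 3243 and 11081 CPM in the gate and 3714, 6575, 10626 and 18302 CPM in tubule-poor barcodes, a D7 level 5.33 (95% interval 5.01 to 5.68) times that of D0 in the gate. Reads of Lyz2 and its near copy Lyz1 may be shared. At D4 Lyz2 was at 10932 CPM in the 14 Retnla cells described below and at 2178 CPM in the other 109. Those 109 also held more tubule RNA, with a median of 3.65% of UMIs in tubule markers against 0.365%. The part of Retnla cells in the D4 tubule-poor levels was not tested.

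The share of cells with a UMI showed how widely these genes were held. After thinning to 1000 UMIs, Trem2 was found in 4.81, 1.92, 10.3 and 22.1% of tubule-poor cells in day order, with 22.1% (14.6 to 31.3%) at D7 and 4.81% (1.58 to 10.9%) at D0, against at most 0.1% of proximal tubule barcodes thinned alike. Fabp5 was found in 0, 1.92, 0 and 24% (a count of 0 allows up to 2.88% at D0 and 10.3% at D4) and Ctsd in 9.62, 16.4, 44.8 and 51.9%, beside 0.5, 1.6, 1.9 and 1.4% and 11.5, 8.5, 13 and 12% of proximal tubule barcodes. The Ctsd share at D0 was therefore no higher than in tubule cells, and the D4 and D7 shares were above it. The summed Ctsb and Ctsd UMIs per tubule-poor cell had medians of 1, 1, 2 and 3 per 1000 and upper quartiles of 1, 1, 5 and 6. In the whole gate, with barcodes of 3000 or more UMIs thinned to 3000, Trem2 was found in 7.84, 11, 12.4 and 31.6% and Fabp5 in 3.92, 6.59, 0.826 and 23.4%, so D7 was highest in that count too. For Lyz2 the medians were 2, 1, 7 and 14 and the upper quartiles 4, 4.25, 14 and 23, so the D7 median lay above the upper quartile of D0.

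**Figure D3:**
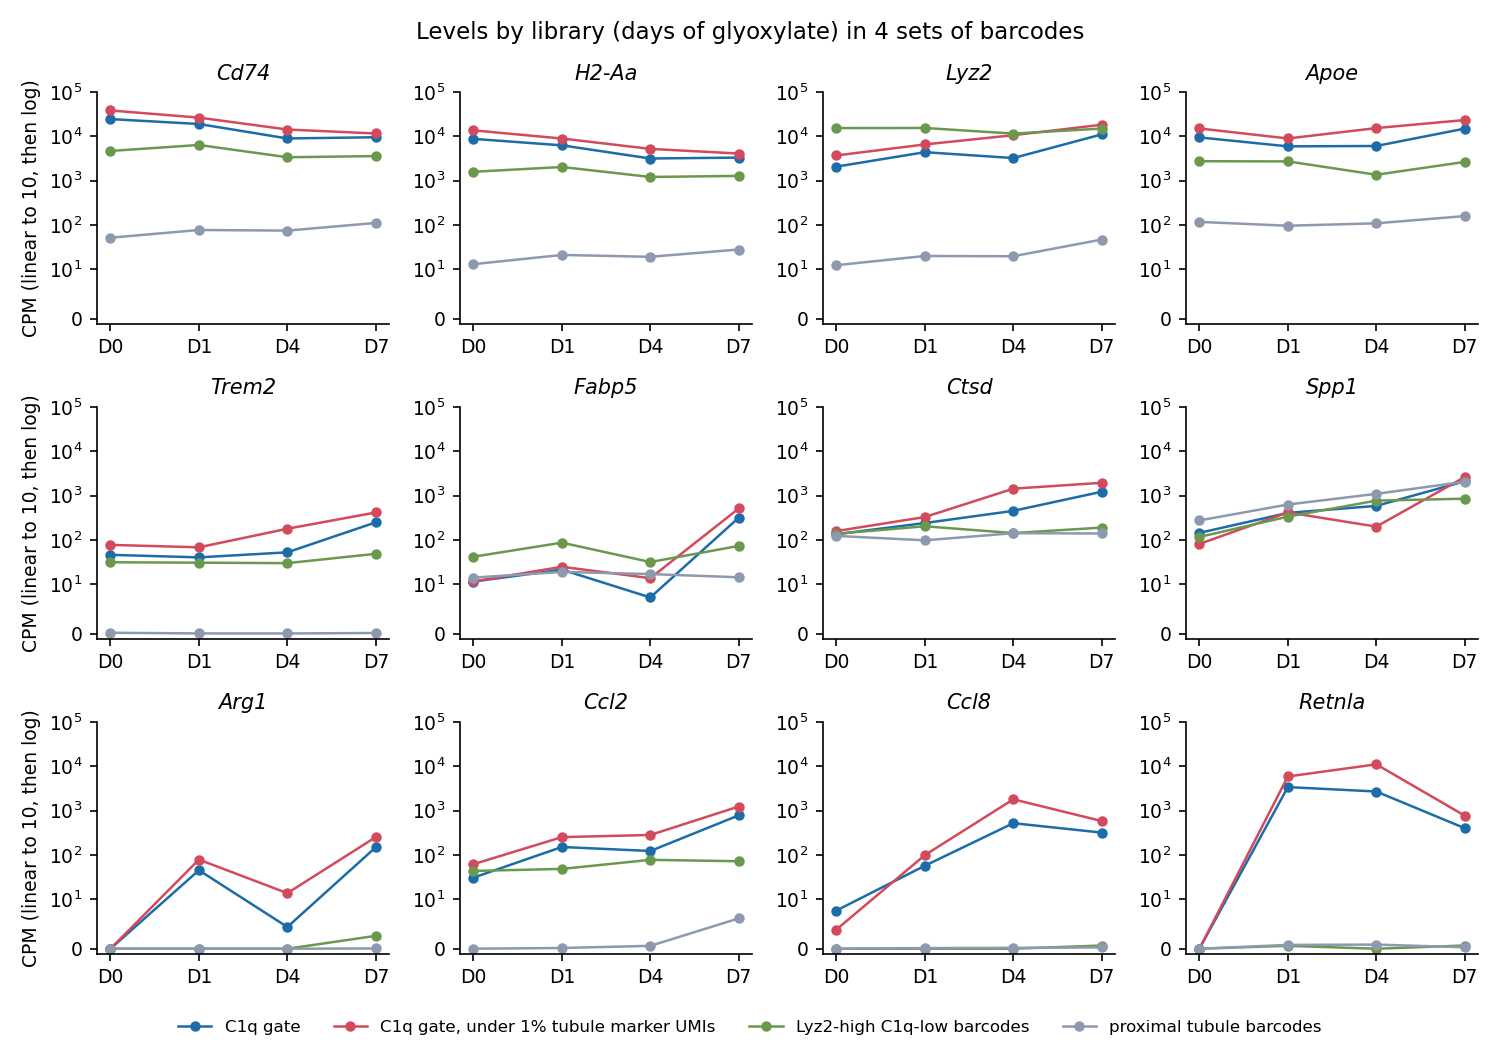
Levels of 12 genes in each library (x axis, days of glyoxylate) in CPM (y axis, linear to 10 and logarithmic above) for the C1q gate, its tubule-poor barcodes, Lyz2-high C1q-low barcodes and proximal tubule barcodes. In the C1q gate Cd74 and H2-Aa are highest at D0 and Lyz2, Trem2, Fabp5 and Ctsd at D7, while Spp1 goes up in proximal tubule barcodes as well.

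Ccl2, Ccl7 and Ccl8, chemokine genes of monocyte attraction, were higher at D7, and Ccl4, another chemokine gene, was lower in the gate. Ccl2, the main ligand of CCR2, was at 31 CPM at D0, 152 at D1, 124 at D4 and 787 at D7. Ccl7, another ligand of CCR2, was at 25.2, 58.8, 79.5 and 327 CPM. Ccl8 was at 7.75, 57.6, 524 and 321 CPM, with its highest level at D4. Without the Retnla cells described below Ccl8 was at 7.75, 1.39, 43.5 and 278 CPM, highest at D7. The D7 level of Ccl2 was 25.4 (95% interval 15.6 to 44.6) times that of D0. Cells with a Ccl2 UMI numbered 7, 14, 26 and 64 in the gate, and after thinning they made up 3.85, 8.65, 10.3 and 32.7% of tubule-poor cells. Of the list of inflammatory cytokines and chemokines 10 of 21 measured genes were higher at D7 and 3 lower (median 0.73), where 3.67% of genes were higher and 2.03% lower. The 3 lower were Ccl4, Cxcl9 and Cxcl10, and at D4 Ccl3 and Cxcl16 as well. There were 5 higher and 5 lower of 17 at D4, where 2.90% of genes were higher and 2.40% lower. Il1a, Il1rn, Cxcl1 and Ptgs2 were measured at D7 but not at D1 or D4, so they entered the list through D7. Ccl8, with 4 UMIs at D0, could not be called lower. Ccl3, a chemokine of activated macrophages, was at 1366, 1113, 631 and 717 CPM, with a log2 ratio of -0.92 at D7. Ccl4, a near relative of it, was at 3964, 3250, 1786 and 1773 CPM, with -1.16. D0 was highest in both, also in tubule-poor barcodes, where Ccl3 was at 2229, 1645, 922 and 748 CPM and Ccl4 at 5979, 4864, 2613 and 1970 CPM. Thinned to 1000 UMIs, the median tubule-poor cell held 6, 1.5, 2 and 1 UMIs of the pair. In the whole gate at 3000 or more UMIs D1 was the highest instead, with 611, 989.6, 623 and 677 CPM of Ccl3 and 2186, 3022, 1775 and 1732 CPM of Ccl4. Il1b, the cytokine interleukin 1 beta, was at 1009, 1172, 599 and 923 CPM and stayed within 2-fold of D0 on each day. Cxcl9, an interferon-induced ligand of CXCR3, was at 379.7, 54, 26.5 and 31.6 CPM, but a single D0 cell held 87.8% of the D0 UMIs, and without the cell with most UMIs in each library the levels were 46.5, 37.2, 14.7 and 15 CPM.

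Most of the genes higher at D1 lost that call when a small set of cells was left out. Retnla, which encodes the secreted protein RELM-alpha of type 2 responses (chr16:48842551-48844461, plus strand), had no UMI in the 154 D0 cells, which allows up to 1.95% of cells with one, and stood at 3407 CPM at D1, 2712 at D4 and 404 at D7. A limit of 3 UMIs for the D0 sum would put D1 at least 586-fold and D4 at least 466-fold higher. That limit counts single UMIs, whereas Retnla came in few cells with many UMIs each. These folds are therefore not bounds over cells. Cells with 5 or more Retnla UMIs numbered 8, 14 and 3 on the later days, with 15 to 1495, 16 to 475 and 56 to 227 UMIs per cell, and all other cells held at most 2. One cell gave 52.6% of the D1 UMIs, and it held 0 UMIs of Folr2 and 0 of Lyve1, genes that most of the 8 held. The Retnla cells were deep at D1, with a median of 14171 UMIs against 3044 in the other cells, and the deepest D0 cell of the gate held 26959. This set was chosen after its values were seen.

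Most Retnla cells shared further genes that few other cells held. At D1 the folate receptor gene Folr2 had a UMI in 5 of 8 Retnla cells and in 0 of the other 164, where a count of 0 allows up to 1.83%. The lectin gene Cd209f was found in 5 and 0 cells, Fcna (ficolin A, an activator of the lectin pathway) in 6 and 0, Lyve1 (a hyaluronan receptor) in 5 and 0, and Timd4 (a receptor for dying cells) in 6 and 0. All 8 held Cfp (properdin) and Clec10a (a galactose-binding lectin), against 14 and 3 of the others. Cx3cr1 went the other way, with 1 of 8 against 87 of 164, and Cd74 was at 5845 CPM in the Retnla cells against 21039 in the rest. At D4 the same genes were held by 11 (Folr2), 9 (Cd209f), 10 (Fcna) and 8 (Lyve1) of 14 Retnla cells and by 6, 0, 3 and 3 of the other 109. Ccl24, an eosinophil attractant, was in 13 of 14 and 4 of 109, and Ccl8 was at 3991 CPM against 43.5. Ccr2 was in 8 of 14 and 22 of 109 cells at D4, and in 2 of 8 and 33 of 164 at D1. Deeper cells show a UMI more often, and the depth of Retnla cells was not matched here. Reads of Cd209f, Cd209d and Cd209g, near copies of one another, may be shared.

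Without the Retnla cells the D1 comparison changed most. It had 152 genes higher (2.44% of 6242) and 67 lower with all cells, and 71 higher and 75 lower without the 8, and 60 of the 152 were kept. One of the 8 held 251 of 251 Saa3 UMIs (serum amyloid A), 78 of 78 of Marco (a scavenger receptor), 38 of 38 of Arg1 (arginase) and 133 of 261 of Fn1 (fibronectin), so the D1 levels of Saa3, Marco and Arg1 rest on 1 cell. That cell held 0 UMIs of Folr2, Lyve1 and Cd209f. At D7 Arg1 was in 24 cells at 151 CPM after none at D0, at least 25.9-fold higher, with 13.8% of its UMIs in the leading cell. Of the alternative activation list, which holds Retnla, Folr2, Cd209f and Arg1, 9 of 19 measured genes were higher at D1, 8 of 16 at D4 and 10 of 17 at D7, with none lower, where 2.44%, 2.90% and 3.67% of all genes were higher. Retnla, Folr2, Cd209f, Cd209d, Cd163, Arg1 and Ccl24 had no UMI at D0 and Ccl8 had 4. These genes entered the measured genes only through the later days and could not be called lower. Without the Retnla cells 0 of 9 were higher at D1, 4 of 12 at D4 and 7 of 15 at D7, with 1, 1 and 0 lower, where 1.21, 3.18 and 3.44% of genes were higher. The list medians were 0.44, 0.98 and 1.45 with these cells and -0.18, -0.18 and 0.96 without them, so the D1 calls rested on Retnla cells and the D4 calls did in part. Mrc1, the mannose receptor of the same list, was at 124, 157, 156 and 241 CPM. Without the Retnla cells Mrc1 was at 124, 44.3, 63.7 and 225 CPM, below D0 at D1 and D4. Stab1, a scavenger receptor, was at 63.9, 79.1, 72.1 and 211 CPM. Cbr2, a carbonyl reductase, had no UMI at D0 and 98.3, 144 and 64.1 CPM on the later days, and 10 of the 14 Retnla cells of D4 held it.

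**Figure D4:**
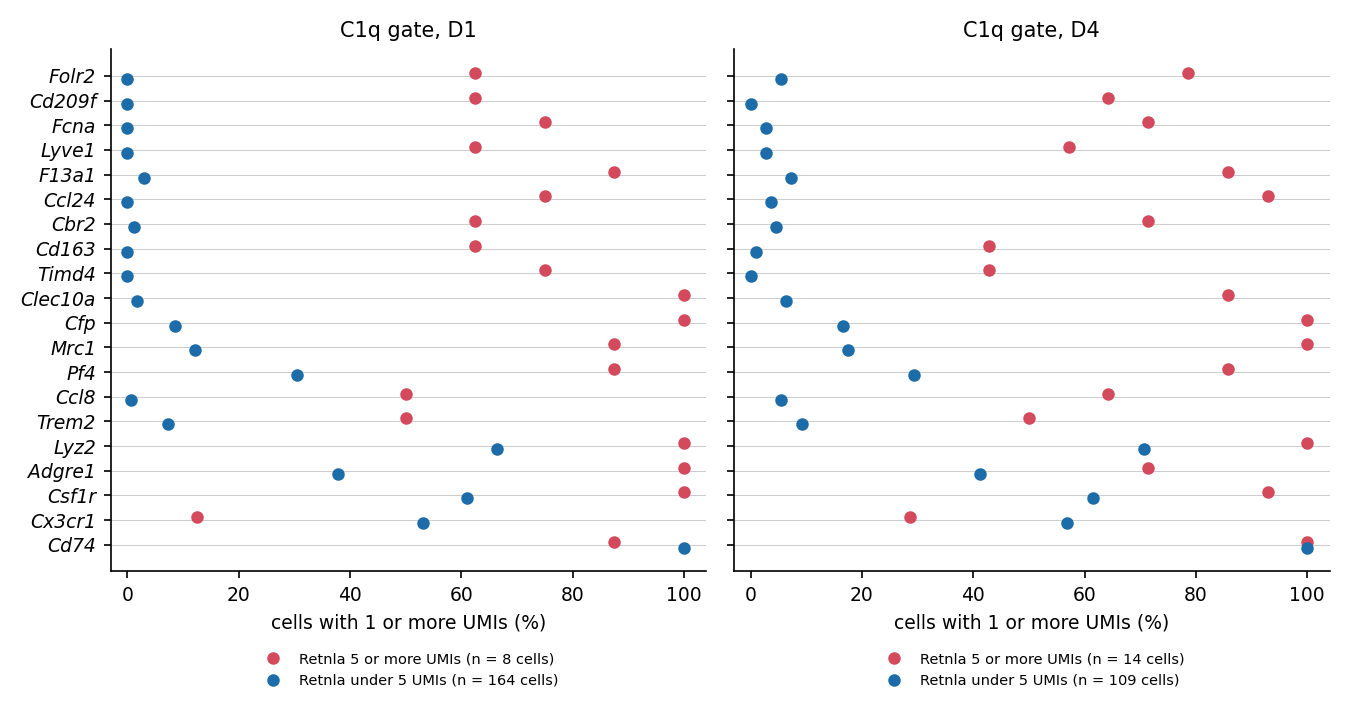
Percentage of C1q-high cells with 1 or more UMIs of 20 genes (y axis) at D1 (left) and D4 (right), for cells with 5 or more Retnla UMIs and all others. Folr2, Cd209f, Fcna, Lyve1, F13a1, Ccl24, Clec10a and Cfp are held by more than 50% of Retnla cells on both days and by a small share of the others, and Cx3cr1 by a smaller share of Retnla cells.

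Part of the genes of monocytes and recruited macrophages were higher from D1 on. Of that list 9 of 17 measured genes were higher at D1, 7 of 15 at D4 and 8 of 17 at D7, with none lower (medians 1.08, 0.92 and 0.88), where 2.44%, 2.90% and 3.67% of all genes were higher. Fn1, F13a1 and Itgam had 1, 3 and 7 UMIs at D0, so they were measured only through the later days and could not be called lower. Without the Retnla cells 6 of 13, 5 of 14 and 8 of 17 genes of the list were higher (medians 0.98, 0.37 and 0.83), where 1.21, 3.18 and 3.44% of all genes were. In tubule-poor barcodes with 3000 or more UMIs 6 of 16 were higher and 4 lower at D7, over the 22 D0 cells left, where 14.4% of genes were higher and 6.17% lower. S100a4, a calcium-binding protein of motile cells, was at 60.1 CPM at D0, 433 at D1, 232 at D4 and 407 at D7. Fn1 was at 1.94, 313, 157 and 339 CPM. Itgam, the integrin subunit CD11b, was at 13.6, 115, 45.6 and 108 CPM. F13a1, a clotting factor subunit, was at 5.81, 211, 206 and 93.2 CPM. These 4 genes were low at D0 and above it on each later day. Retnla cells held much of F13a1 and Fn1: without them F13a1 was at 5.81, 12.5, 46.9 and 44.8 CPM and Fn1 at 1.94, 15.2, 51.9 and 344 CPM. Itgam was then at 13.6, 40.2, 18.4 and 106 CPM and S100a4 at 60.1, 357, 206 and 404 CPM, and each of the 4 still lay above D0, with Itgam at D4 close to it. The monocyte receptor genes did not share this order: Ccr2 was at 107, 251, 144 and 146 CPM and Ly6c2 at 58.1, 68.3, 35.3 and 25 CPM. Of the resident-type list 4 of 15 measured genes were higher at D7 and 0 lower, where 3.67% of genes were higher and 2.03% lower. The 4 were Folr2, Lyve1, Mertk and Pf4. Folr2 and Lyve1 had no UMI at D0 and Mertk few, so these were measured only through D7 and could not be called lower. Folr2, Lyve1 and Mertk were also among the measured genes in the counts that follow. In tubule-poor barcodes 5 were higher and 2 lower, Cx3cr1 and the tetraspanin gene Cd81, where 8.09% and 5.37% were. Cd81 was at 1649, 1272, 749 and 720.4 CPM there. In tubule-poor barcodes with 3000 or more UMIs 10 of 15 were higher and 0 lower, where 14.4% and 6.17% of genes were. In the whole gate at that depth 7 were higher and 0 lower, where 5.45% and 3.25% were. Cx3cr1 and Cd81 were thus not called lower at that depth. Pf4, a chemokine of the resident-type list, was at 209, 554, 377 and 570.1 CPM in the gate. Without the Retnla cells Pf4 was at 209, 162, 191 and 512 CPM, below D0 at D1 and D4. Arrival of monocyte-derived cells and a change within resident cells cannot be told apart from these levels.

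Other immune cell types left small traces. Dendritic cell markers (Flt3, Xcr1, Clec9a, Cd209a and others) summed to 94.9, 109, 61.8 and 93.2 CPM, and Xcr1, Clec9a and Flt3 had fewer than 20 UMIs in each pair of libraries. Neutrophil markers summed to 132, 52.8, 58.9 and 578 CPM, and 4 of 4 measured ones were higher at D7, where 3.67% of genes were. A single D7 barcode held 267 of 362 S100a9 UMIs and 84 of 85 Retnlg UMIs, both neutrophil genes, at 2897 UMIs in all. It fell out at 3000 or more UMIs, where S100a9 was at 81.4 CPM at D7 and 109.9 at D0. Klk1, a kallikrein of distal tubule segments, was at 256, 69.5, 25 and 116 CPM. Umod, the uromodulin of the thick ascending limb, was at 170.5, 191, 78 and 54.1 CPM. One D0 cell held 81.1% of the D0 UMIs of Klk1 and a different one 80.7% of those of Umod.

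Some phagocytic, complement and iron genes were higher at D7, where 3.67% of all genes were higher and 2.03% lower. Of Fc and phagocytic receptors 6 of 23 measured genes were higher and 1 lower. Msr1, a scavenger receptor for modified lipoproteins, was at 17.4, 15.6, 14.7 and 90.7 CPM, with D7 above 3 similar libraries. Lrp1, a receptor for lipoproteins, was at 19.4, 74.3, 25 and 105 CPM. Of complement components and receptors other than C1q 3 of 12 were higher. These were Cfp, C4b and Itgam. With 3, 0 and 7 UMIs at D0 they were measured only through D7 and could not be called lower. Cfp, properdin of the alternative pathway, was at 5.81, 128, 160.4 and 206 CPM, above D0 on each later day. Without the Retnla cells Cfp was at 5.81, 41.55, 51.9 and 191 CPM, so those cells held much of its D1 and D4 levels. C4b, which C1q-bound proteases cleave, had no UMI at D0 and 52.8, 54.4 and 44.1 CPM on the later days. Iron handling had 3 of 12 higher. Hmox1, heme oxygenase, was at 52.3, 113, 125 and 182 CPM. Slc40a1, the iron exporter ferroportin, was at 11.6, 14.4, 29.4 and 36.6 CPM. Both increased in day order. NRF2 targets, genes of the oxidant response, had 3 of 13 higher.

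Some growth factor and cell cycle genes were higher in tubule cells as well. Growth factors and repair genes had 7 of 17 higher at D7, where 3.67% of all genes were. Osm, the cytokine oncostatin M, was at 19.4, 19.2, 14.7 and 90.7 CPM in the gate, with D7 above the rest. Gdf15, a stress-induced cytokine, was at 40.7, 27.6, 128 and 202 CPM in the gate and 70.8, 81.3, 244 and 319 CPM in proximal tubule barcodes. Cell cycle genes had 13 of 18 higher, beside the same 3.67%. Cdk1, Ccnb1, Ccnb2, Cdc20 and Tk1 were measured at D7 but not at D1 or D4, so they entered the list through D7. Members with almost no UMIs at D0, such as Ube2c, could not be called lower. Ube2c, a mitotic ubiquitin-conjugating enzyme, was at 1.94, 27.6, 32.4 and 59.1 CPM in the gate and 0.557, 0.975, 22.4 and 38.2 CPM in proximal tubule barcodes, so tubule cells increased too. In tubule-poor barcodes of 3000 or more UMIs 3 of 10 cell cycle genes were higher, where 14.4% of genes were. The part of tubule RNA in the gate's values was not tested beyond these.

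Signalling and stress lists had few members past 2-fold at D7, where 3.67% of all genes were higher and 2.03% lower. Counts of 1 or 2 genes are not read as a change of a list. Immediate-early factors had 3 of 19 higher and 2 lower at D7 (median -0.49). Ier3 was at 56.2, 62.4, 109 and 293 CPM and highest at D7. Klf2, a factor of quiescent leukocytes, was at 1379, 1170, 441 and 721 CPM. Ier5 was at 858, 722, 303 and 368 CPM, lowest at D4 like Klf2. Such genes also respond to the digestion of tissue, which was not tested. NF-kB feedback genes had 2 of 20 higher and 0 lower. The macrophage growth factor axis had 1 of 12 higher and 3 lower. Cebpb, a transcription factor of myeloid cells in that list, was at 176, 427, 315 and 637 CPM, above D0 on each later day. Glycolysis had 1 of 12 higher, which was Pkm, pyruvate kinase, at 89.1, 175, 83.9 and 214 CPM. Heat shock genes had 0 higher and 0 lower of 14. Of the macrophage markers 1 of 9 was higher and 0 lower. That gene was Mertk, a receptor for dying cells, at 9.69, 13.2, 14.7 and 30.8 CPM beside 11.5, 10.5, 13.2 and 11 CPM in proximal tubule barcodes.

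**Figure D5:**
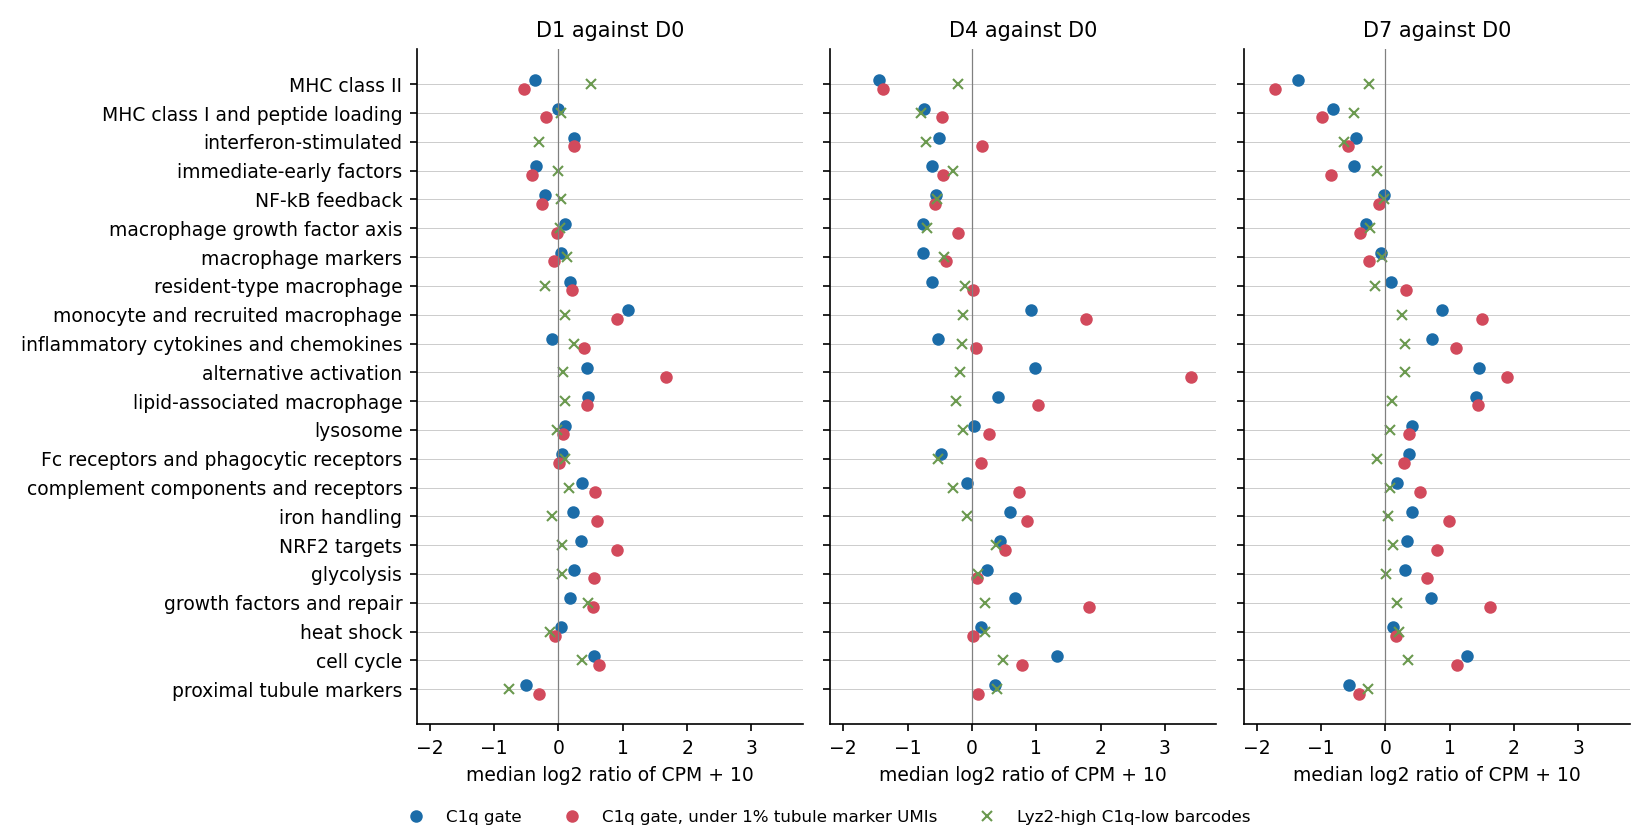
Median log2 ratio of CPM + 10 (x axis) over the measured genes of 22 lists (y axis) at D1, D4 and D7 against the shared D0, for the C1q gate, its tubule-poor barcodes and Lyz2-high C1q-low barcodes. MHC class II lies lowest in the C1q gate at D4 and D7, and the lipid-associated, alternative activation and recruited lists lie above 0 at D7, while at D7 these 4 lists lie closer to 0 in Lyz2-high C1q-low barcodes.

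The C1q gate was set beside other phagocytes of the same libraries, barcodes with at least 5 Lyz2 UMIs and at most 1 C1q UMI under the same limits, which numbered 119, 259, 108 and 300. Without Lyz2, which chose them, their recruited-list genes summed to 12267, 14275, 10549 and 14458 CPM against 1410, 4172, 2553 and 3617 CPM in the C1q gate, which was thus lower on every day. At D7 against D0 0 of 7 class II genes were lower there (median -0.25), where 0.657% of genes were, and Cd74 was at 4690, 6394, 3380 and 3592 CPM. Of the lipid-associated list 1 of 22 was higher and 1 lower, where 1.18% of genes were higher. Trem2 was at 31.6, 30.9, 30.2 and 49.1 CPM in them. Ctsd was at 139, 205, 144 and 191 CPM. Neither showed the D7 level of the C1q gate. Retnla was nearly absent from them, at 0, 0.595, 0 and 0.654 CPM. With 1 library a day the difference between the gates could not be tested, and these barcodes hold neutrophils and monocytes in proportions of their own: S100a9 was at 2364, 4627, 338 and 543 CPM.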

How the data were processed

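Each library is a matrix of deposited UMI counts per gene and barcode, made by the authors with Cell Ranger 3.1.0 on mm10, per the submitters' processing notes; the matrix headers name software 3.0.1. The annotation release was not given in the sources used here, nor was the way cells were told from empty droplets. The files list 27998 genes, of which 27645 IDs matched the RefSeq gene table. Gene positions come from GENCODE M21 on GRCm38.

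From these counts, UMIs were summed over the gated barcodes of a library and scaled to CPM. A gene with at least 20 UMIs in a pair was called at a 2-fold ratio of CPM + 10, which understates changes of low genes. In every list a gene below 10 CPM at D0 could be called higher but not lower. With 1 library a day no test across animals was possible. Ratio intervals are exact conditional Poisson intervals and share intervals exact Clopper-Pearson intervals; both cover counting error only. A level of 0 was set to 3 UMIs for an "at least" fold. Proximal tubule barcodes had no C1q, Ptprc or Umod UMI and at least 5 UMIs over 15 markers. Doublets were kept. Scrublet's own threshold marked 2723, 5, 0 and 2370 barcodes and so failed at D1 and D4, and an alternative removed the highest scores at an expected rate, 37, 15, 16 and 28 of them in the gate. Other alternatives were a floor of 3000 UMIs, 25% mitochondrial UMIs, 10 or 2 C1q UMIs, thinning, edgeR's TMM factors as a scaling only, tubule RNA taken off, a pseudocount of 1, no UMI filter, and leaving out the top cell of each gene.

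Genes were named by rule: for each day the 10 highest and 10 lowest ratios among genes of at least 100 CPM and 3 times the proximal tubule level, leaving out mitochondrial, ribosomal, haemoglobin and unnamed genes, up to 4 members of each of 30 lists with the largest change at D7, and fixed markers. Other genes named were picked after their values were seen. A gene that the rule named is not reported here. The members and lists were chosen with earlier results of these data known. The code was tested on simulated data. Tools were Python 3.11.15, numpy 2.4.6, scipy 1.17.1, pandas 2.3.3, scanpy 1.11.5, matplotlib 3.10.9, R 4.3.3 and edgeR 4.0.16.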

Additional observations from a re-analysis of the deposited data

How the results depend on the processing

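The share of the C1q gate depended on depth. At 3000 or more UMIs its ratio to D0 was 2.36 at D1, 1.49 at D4 and 2.42 at D7, and with barcodes thinned to 3000 UMIs it was 2.22, 1.41 and 2.41, so D4 turned from below to above D0. Tubule-poor barcodes at 3000 or more UMIs gave 3.91 at D1 and 3.11 at D7. Genes 2-fold apart numbered 219, 318 and 401 at D1, D4 and D7. They numbered 403 at D1 and 209 at D4 with 3000 or more UMIs, 576, 1242 and 843 without the highest Scrublet scores, 1275, 1684 and 1757 with carried tubule RNA taken off and 520, 675 and 858 with a pseudocount of 1 CPM. Tubule-poor barcodes gave 604 at D7, and those with 3000 or more UMIs 444 at D1 and 772 at D7. The cause was not tested. Of the called genes 69.4, 54.7 and 64.3% were higher on the 3 days. This share moved by over 10 points to 71.8% at D4 with 3000 or more UMIs, 79.7% and 68.9% at D1 and D4 without high Scrublet scores, 68.1% at D4 with tubule RNA taken off, 66.4% at D4 in tubule-poor barcodes of 3000 or more UMIs, and 48.6% at D1 without Retnla cells. Scaling by TMM left 218, 320 and 401 genes.

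The list medians at D7 kept their sign under the 14 alternatives tried for each of 4 lists: MHC class II ranged from -1.90 to -0.72, lipid-associated from 0.97 to 1.65, alternative activation from 0.96 to 1.94 and recruited from 0.46 to 1.89 on the log2 scale. Over all lists and days 856 of 999 medians moved by less than 0.5 and 62 of these crossed 0. The other 143 moved by 0.5 or more and 34 of these crossed 0. The resident-type median at D4, -0.62, reached 1.09, and the alternative activation median at D4, 0.98, went down to -0.18. Of the named genes 1792 of 1997 values stayed on their side of 2-fold, 197 crossed it or changed sign without a call, and 8 called ones turned. At D7 with 3000 or more UMIs S100a9 was at -0.39, S100a8 at -0.27 and the neutrophil median at -0.27; thinned to 3000 UMIs S100a9 was at -1.51 and S100a8 at -0.81. Klk1 was at 0.49 at D1 with at most 25% mitochondrial UMIs and at 0.11 at D4 without high Scrublet scores. Umod at D7 was at 0.44 with at most 25% mitochondrial UMIs and 0.12 without the cell that held most of it. Tubule-poor sets, Retnla cells and thinning to 1000 UMIs were chosen after seeing the data.

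No paired analysis was possible because each day is 1 library. Depth limits D0 most: 51 of its 154 gated barcodes reached 3000 UMIs, and 22 of those were tubule-poor.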
